A study of Mus musculus with 4 samples.

Results

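The 5 genes Cpa3, Tpsab1, Gzmb, Srgn and Hdc, which encode mast cell granule proteases, the granule proteoglycan serglycin and the enzyme that makes histamine, were followed through RNA-seq of bulk cultures of G1E, a mouse erythroblast line. They were chosen by symbol from the 2982 genes that the authors' 6 tables list, and all 5 have a level in every group. G1E was derived from cells that lack GATA-1, the zinc finger transcription factor of red cell maturation. The groups, of 1 sample each, are G1E carrying the wild-type factor (GATA-1 WT), the mutant GATA-1 2RA or the mutant GATA-1 V205M, and the G1E control. All 4 samples, the control included, received β-estradiol, and neither the number of clones behind a group nor the construct that carries GATA-1 is given in the labels. V205M is a substitution in the amino-terminal zinc finger that is known to weaken binding of the cofactor FOG-1. What the 2RA form changes in the protein is not in the labels.

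Mast cells store proteases in secretory granules, where these basic enzymes and histamine are held by the sulfated glycosaminoglycan chains of serglycin. GATA-2 is known to drive the mast cell program, and GATA-1 takes over from GATA-2 at many shared sites as erythroblasts mature. Serglycin is not limited to mast cells, as platelets, neutrophils and cytotoxic lymphocytes also use it in their granules, and granzyme B is best known from cytotoxic lymphocytes.

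A level is the authors' mean of read counts after division by a size factor, called scaled reads below. The deposited values resolve into whole reads of 1 count column in GATA-1 WT cells, 1 in GATA-1 2RA cells, 2 in GATA-1 V205M cells and 2 in the G1E control. What the 2 columns of a group stand for is not stated, so they are shown side by side. No value computed here treats them as replicates, except the edgeR counts and its coefficient of variation given near the end. Summed over the listed genes, a column held 276064 to 2178397 reads. No column holds a count of 0 for a listed gene, and the lowest count is 1, so that a value of 1 read may stand for 0. Intervals are 95% counting intervals from the recovered reads, cover counting error only, and give no spread between cultures. They take 1 read as observed. If that read stands for 0, a ratio over its group is a lower limit and the upper bound given does not hold. A gene is called listed in a comparison when the authors' table holds it, which holds genes changed over 2-fold at an adjusted p under 0.01. Gata1 itself, as a check of the labels, stood at 2652 scaled reads in GATA-1 WT cells, 1421 in GATA-1 2RA cells, 613 in GATA-1 V205M cells and 153 in the G1E control. The amount of Gata1 RNA thus differed along with the form of GATA-1. In the comparisons between forms below, amount and form cannot be told apart.

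The windows around the RefSeq transcription starts of 4 of the genes are shown because the genes moved in different ways across the groups. Each window runs from 250 bases before the start to 50 bases after it (build GRCm38.p6, minus strand in all 4). Capitals mark GATA motifs (AGATAA and AGATAG as well as TGATAA and TGATAG) and E-boxes (CANNTG), searched on both strands. The windows lie at chr3:20242132-20242431 (Cpa3), chr14:56262285-56262584 (Gzmb), chr2:126618629-126618928 (Hdc) and chr10:62527396-62527695 (Srgn).
Cpa3: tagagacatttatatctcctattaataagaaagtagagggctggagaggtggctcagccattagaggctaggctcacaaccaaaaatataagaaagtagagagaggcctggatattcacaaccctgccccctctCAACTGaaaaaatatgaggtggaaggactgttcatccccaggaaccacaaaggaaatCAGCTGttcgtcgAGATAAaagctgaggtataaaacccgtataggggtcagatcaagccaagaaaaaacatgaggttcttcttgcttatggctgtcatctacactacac
Gzmb: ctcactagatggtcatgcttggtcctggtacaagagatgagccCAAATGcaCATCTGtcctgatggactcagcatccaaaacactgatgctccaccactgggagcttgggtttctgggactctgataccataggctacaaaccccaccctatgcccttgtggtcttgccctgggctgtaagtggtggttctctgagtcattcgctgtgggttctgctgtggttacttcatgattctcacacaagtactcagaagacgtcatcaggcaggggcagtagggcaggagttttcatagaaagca
Hdc: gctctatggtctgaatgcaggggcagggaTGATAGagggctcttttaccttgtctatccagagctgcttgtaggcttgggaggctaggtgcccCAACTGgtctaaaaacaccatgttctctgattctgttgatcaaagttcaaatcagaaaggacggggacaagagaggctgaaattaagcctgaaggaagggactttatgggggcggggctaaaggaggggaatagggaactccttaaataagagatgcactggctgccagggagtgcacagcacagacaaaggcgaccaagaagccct
Srgn: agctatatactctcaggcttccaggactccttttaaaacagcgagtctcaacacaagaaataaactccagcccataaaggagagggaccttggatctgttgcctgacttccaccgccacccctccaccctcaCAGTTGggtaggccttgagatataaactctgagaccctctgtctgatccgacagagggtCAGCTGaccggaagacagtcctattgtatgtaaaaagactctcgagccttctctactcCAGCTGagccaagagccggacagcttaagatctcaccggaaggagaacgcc
The Cpa3 window holds 1 GATA motif, AGATAA, at positions -46 to -41 counted from the start, and an E-box, CAGCTG, at -59 to -54. Together they match an E-box followed by GATA after 7 to 9 bases (CANNTGNNNNNNNNGATA for the spacing found here), which 1.66% of all 32841 RefSeq windows of this length hold. This longer word overlaps the 2 single motifs. Hdc has a GATA motif, TGATAG, at -221 to -216, on a RefSeq start that lies inside the gene span given below, while the Gzmb window and both RefSeq windows of Srgn have none of the 4 words. Of all windows, 29.8% hold a GATA motif and 72.3% an E-box. The Gzmb window has 2 E-boxes, the shown Srgn window 3 and the Hdc window 1. A TATA box (TATAAA), found in 13.6% of all windows, lies at -31 to -26 in Cpa3, where a second match is on the opposite strand at -242 to -237, and at -98 to -93 in the shown Srgn window. Matches are a description of letters and show no binding.

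Cpa3 and Gzmb were nearly absent with each of the 3 GATA-1 forms and high only in the control. Cpa3, mast cell carboxypeptidase A (chromosome 3, 20215620 to 20242181 in GRCm38, 11 exons), stood at 0.630 scaled reads (1 read) in GATA-1 WT cells and 5.0 (7 reads) in GATA-1 2RA cells. It stood at 14.6 in GATA-1 V205M cells, where the 2 count columns gave 5.16 and 24.0 scaled reads, and at 2795 in the G1E control, where they gave 3030 and 2560. The 3 groups with GATA-1 thus lie far below the control, and no interval of theirs reaches it. The ratio of the G1E control over the GATA-1 form was 4438 for GATA-1 WT (interval 796 to 175324), 559 for GATA-1 2RA (271 to 1391) and 191 for GATA-1 V205M (134 to 284). Among 1157 genes with a level in all 4 groups, the log2 range of Cpa3 over the groups, 10.74, was the largest. In bulk RNA, fewer cells of a type and less RNA per cell cannot be told apart.

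Gzmb, granzyme B (chromosome 14, 56258838 to 56262260, 5 exons), had 0.630 scaled reads in GATA-1 WT cells and 0.714 in GATA-1 2RA cells, which is 1 read in each. In GATA-1 V205M cells it had 1.93, from 1 and 3 reads in the 2 count columns, and in the G1E control 88.7, from 96 and 34 reads. The control thus exceeded GATA-1 WT by a ratio of 141 (24.8 to 5604), GATA-1 2RA by 124 (21.9 to 4940) and GATA-1 V205M by 45.9 (17.5 to 171). Between the 3 GATA-1 forms the counts of 1 to 4 reads do not order Gzmb. Of 14 other coding genes within 250000 bases of Gzmb, among them Ctsg, Mcpt1, Mcpt2, Mcpt4, Mcpt8 and Gzmc, none is in any of the 6 tables. The tables hold 23.1% of all genes tested, and genes in no table may have missed the authors' thresholds or not been tested.

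Tpsab1 and Hdc were at their lowest in GATA-1 WT cells as well, but in both mutants they stood at or above the control. Tpsab1, a tryptase (chromosome 17, 25343245 to 25345562, 5 exons in its principal transcript), had 0.630 scaled reads (1 read) in GATA-1 WT cells, 139 in GATA-1 2RA cells, 474 in GATA-1 V205M cells and 55.1 in the G1E control. The count columns were close, at 478 and 471 scaled reads in GATA-1 V205M cells and at 51.4 and 58.8 in the control. All 4 levels are separated by their counting intervals, in the order GATA-1 V205M, GATA-1 2RA, G1E control, GATA-1 WT. Against the control, Tpsab1 was 8.61-fold higher in GATA-1 V205M cells (6.86 to 10.9) and 2.53-fold higher in GATA-1 2RA cells (1.94 to 3.32). The G1E control exceeded GATA-1 WT by a ratio of 87.5 (15.3 to 3496). The rise in GATA-1 2RA cells was smaller under another scaling, as its log2 difference of 1.32 became 0.76 when the groups were scaled by the median ratio of the 1157 shared genes. Of 22 other coding genes within 250000 bases of Tpsab1, the tryptases Tpsb2 and Tpsg1 among them, none is in any table. Of all genes tested 23.1% are, and whether these neighbours were tested is not known. No stretch of 50 bases in the principal Tpsab1 transcript recurs in a transcript of another gene, and the same holds for the other 4 genes.

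Hdc, histidine decarboxylase (chromosome 2, 126593667 to 126619299, 12 exons), had 1.89 scaled reads (3 reads) in GATA-1 WT cells, 33.6 in GATA-1 2RA cells, 121 in GATA-1 V205M cells and 29.5 in the G1E control. GATA-1 V205M was highest in both of its count columns, at 112 and 130 scaled reads, against 28.3 and 30.8 in those of the control. Relative to the control it was 4.10-fold higher in GATA-1 V205M cells (2.97 to 5.78), and the control exceeded GATA-1 WT by a ratio of 15.6 (5.01 to 78.7). GATA-1 2RA and the control are neighbours in this order and were not separated, with a ratio of 1.14 (0.738 to 1.76), and Hdc is not listed there. The order of the 4 groups was thus that of Tpsab1, except that this pair was not separated.

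Srgn, serglycin (chromosome 10, 62493833 to 62527451, 4 exons), followed neither pattern and was the only gene of the 5 that was higher in GATA-1 WT cells than in the control. Its levels were 215 scaled reads in GATA-1 WT cells, 1077 in GATA-1 2RA cells, 4.15 in GATA-1 V205M cells and 69.6 in the G1E control. The 9 reads in GATA-1 V205M cells were split 5 and 4 over its count columns, and the control columns gave 72.0 and 67.2 scaled reads. Intervals of all 4 groups are apart from each other, with GATA-1 2RA first and GATA-1 V205M last. Srgn was 15.5-fold higher in GATA-1 2RA cells than in the control (12.7 to 19.0) and 3.09-fold higher in GATA-1 WT cells (2.48 to 3.87). The control exceeded GATA-1 V205M by a ratio of 16.8 (8.50 to 37.6). The rise in GATA-1 WT cells was smaller under other scalings, as its log2 difference of 1.61 was 0.88 with equal summed levels and 0.85 with median ratio scaling.

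**Figure D1:**
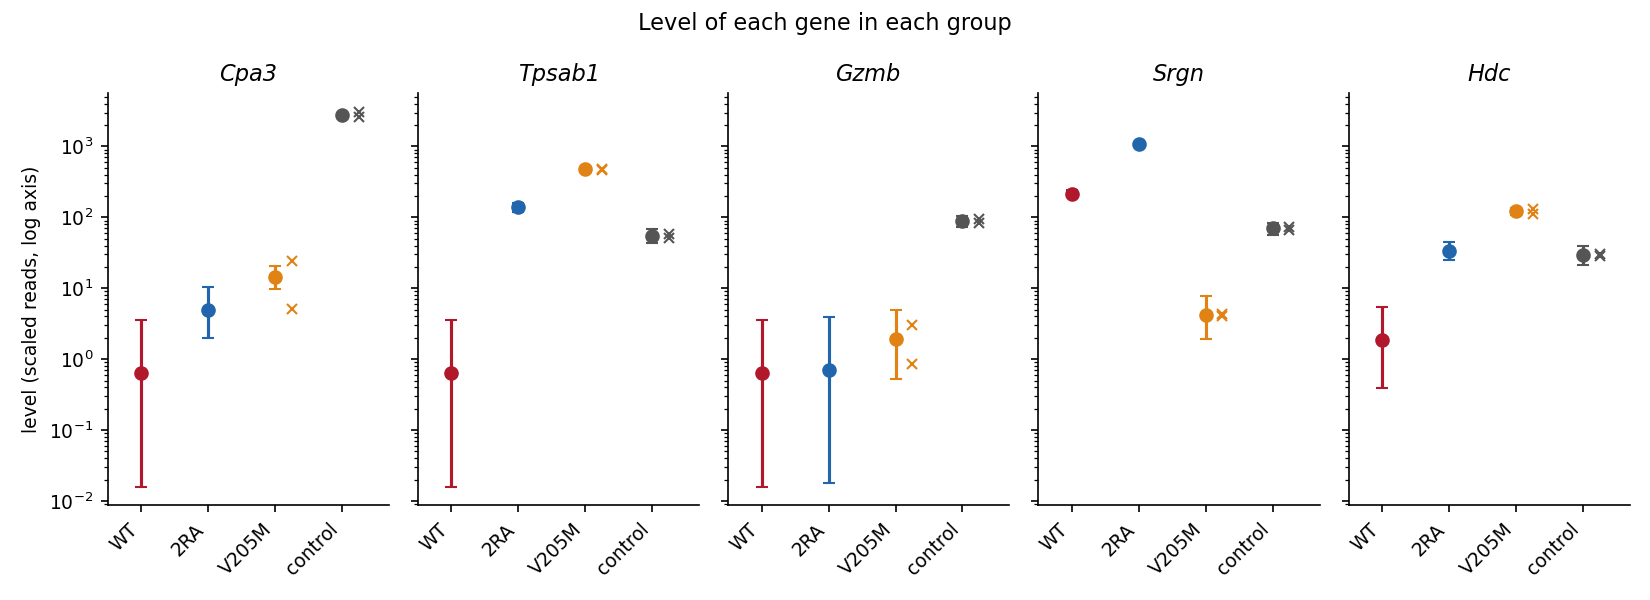
Level of each gene in scaled reads (log axis) in GATA-1 WT cells, GATA-1 2RA, GATA-1 V205M and the G1E control; filled points are group levels with 95% counting intervals, and crosses are the 2 count columns of GATA-1 V205M and of the control. Cpa3 and Gzmb are high in the control alone, Tpsab1 and Hdc peak in GATA-1 V205M cells at 474 and 121, and Srgn peaks in GATA-1 2RA cells at 1077 and is lowest in GATA-1 V205M cells at 4.15.

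All 5 genes are listed for GATA-1 WT against the control, where 1 sample stands beside 1. Whether wild-type GATA-1 or some other difference between these cultures underlies the listed changes was not tested. Srgn is listed as higher, and Cpa3, Tpsab1, Gzmb and Hdc as lower. Over all 12931 genes tested, 13.0% are listed in this comparison, 8.17% as higher and 4.86% as lower. The median log2 difference of the 5 genes, computed with 1 scaled read added to each level, was -5.10, against 1.23 over all listed genes. In comparisons that do not list all 5, the median of the 5 takes in unlisted genes, while the other median covers listed genes only. Ordered by size, Cpa3 was first, Gzmb 8th, Tpsab1 22nd and Hdc 79th of the 628 lower genes. Srgn was at place 560 of the 1057 higher ones.

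In GATA-1 2RA cells against the control, 4 of the 5 genes are listed, Tpsab1 and Srgn as higher and Cpa3 and Gzmb as lower, where 7.46% of all genes are, 4.86% as higher and 2.61% as lower. The median log2 difference was 0.18, against 1.23 over all listed genes, and the value of Hdc is this median. Cpa3 was first and Gzmb 5th of the 337 lower genes, and Srgn was 28th of the 628 higher ones.

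In GATA-1 V205M cells against the control all 5 are listed, Tpsab1 and Hdc as higher and Cpa3, Gzmb and Srgn as lower, where 8.15% of all genes are, 4.83% as higher and 3.32% as lower. The median log2 difference was -3.78, against 1.11 over all listed genes. Cpa3 led the 429 lower genes, with Gzmb 8th and Srgn 26th, and Tpsab1 was 43rd of the 625 higher ones. The comparisons against the control share that sample, so their values stand side by side here and their likeness is not a result.

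Against GATA-1 WT, 3 of the 5 genes are listed for GATA-1 2RA, all higher, where 7.38% of all genes are listed, 3.33% as higher and 4.04% as lower. Tpsab1 was 221-fold higher in GATA-1 2RA cells (39.2 to 8781), Hdc 17.8-fold (5.72 to 89.3) and Srgn 5.01-fold (4.45 to 5.65). Cpa3 had 7 reads in GATA-1 2RA cells and 1 in GATA-1 WT, a ratio of 7.94 (1.02 to 358), and is not listed. The median log2 difference of the 5 genes was 2.32, while over all listed genes it was -1.07.

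For GATA-1 V205M against GATA-1 WT, 4 of the 5 are listed, 3 as higher and Srgn as lower, where 9.36% of all genes are, 3.7% as higher and 5.65% as lower. Tpsab1 was 753-fold higher in GATA-1 V205M cells (135 to 29775), the second of 479 higher genes by log2 difference. Hdc was 64.0-fold higher (21.7 to 312) and Cpa3 23.2-fold (3.85 to 946), whereas for Srgn GATA-1 WT exceeded GATA-1 V205M by a ratio of 51.7 (26.9 to 114). Cpa3 in GATA-1 V205M, although higher than in GATA-1 WT cells, stayed at 14.6 scaled reads against 2795 in the control. Its log2 difference of 3.26 from GATA-1 WT was 1.92 with the first count column of GATA-1 V205M alone and 3.94 with the second. The median log2 difference was 3.26 for the 5 genes and -1.16 for all listed genes.

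The comparison of GATA-1 2RA with GATA-1 V205M, also 1 sample against 1, lists Srgn as higher and Tpsab1 and Hdc as lower in GATA-1 2RA cells. Of all genes, 6.23% are listed there, 3.6% as higher and 2.62% as lower. Srgn differed most, with 1077 scaled reads in GATA-1 2RA cells and 4.15 in GATA-1 V205M, a ratio of 259 (136 to 568) and the second largest of 466 higher genes. GATA-1 V205M exceeded GATA-1 2RA 3.40-fold for Tpsab1 (2.92 to 3.99) and 3.60-fold for Hdc (2.63 to 5.03). Cpa3 is not listed and had 5.0 scaled reads in GATA-1 2RA cells against 14.6 in GATA-1 V205M cells. Its log2 difference of -1.38 was -0.04 with the first count column of GATA-1 V205M alone, so the gap rests on the second. Gzmb, with 1 read in GATA-1 2RA cells and 4 in GATA-1 V205M cells, was not separated, with a ratio of 0.370 (0.00751 to 3.74). The median log2 difference of the 5 genes, -1.38, is the value of Cpa3 and so also rests on the second count column of GATA-1 V205M. Over all listed genes the median was 1.18.

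These genes had to be in at least 1 of the tables to be chosen, so their counts are a description. Of the 2982 genes in any table, 56.5% are listed in GATA-1 WT against the control, 32.4% in GATA-1 2RA against the control and 35.3% in GATA-1 V205M against the control. On the log2(level + 1) scale, 5 of the 5 genes differed by 2-fold or more in GATA-1 WT against the control, as did 84.5% of the genes with both levels. In GATA-1 2RA against the control 4 did, beside 64.7% of such genes, and in GATA-1 V205M against the control 5 did, beside 60.5%. For GATA-1 2RA against GATA-1 WT 4 did, beside 63.9%, and for GATA-1 V205M against GATA-1 WT also 4, beside 69.4%. For GATA-1 2RA against GATA-1 V205M 4 did, beside 54.8%.

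**Figure D2:**
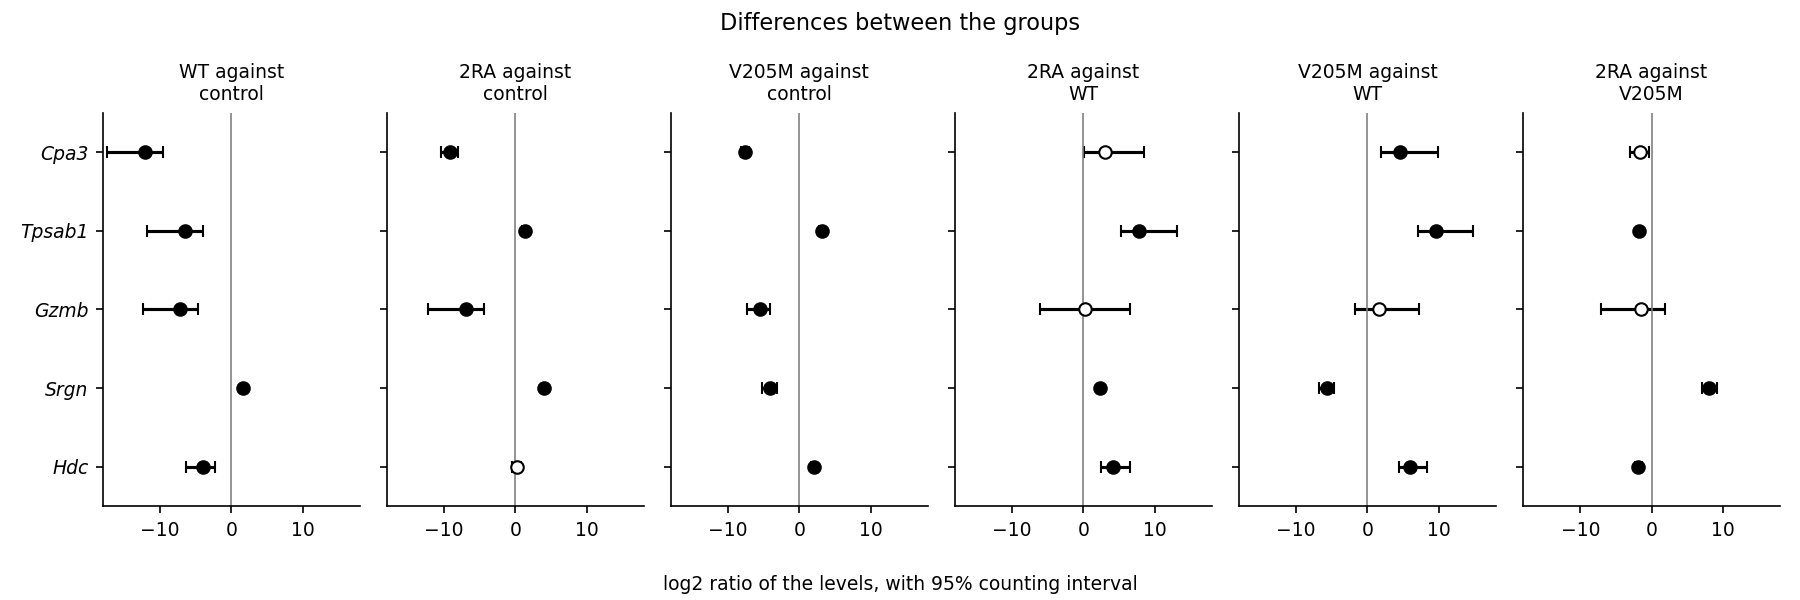
Log2 ratio of the levels, with nothing added to them, for the 5 genes (rows) in the 6 comparisons (panels), with 95% counting intervals; filled points are listed in the authors' table and open points are not. Cpa3 and Gzmb lie below 0 in all 3 comparisons with the control, and Srgn lies above 0 for GATA-1 2RA and below 0 for GATA-1 V205M.

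Per kilobase of the principal transcript, the make-up of the group of genes differed between the samples. Srgn led in GATA-1 WT, at 124 scaled reads per kilobase, with the other 4 genes at 0.435 to 0.790. In GATA-1 2RA cells, Srgn led at 623, followed by Tpsab1 at 121 and Hdc at 14.0, with Cpa3 at 3.45 and Gzmb at 0.498. Tpsab1 led in GATA-1 V205M cells at 410, followed by Hdc at 50.6 and Cpa3 at 10.1, with Srgn at 2.40 and Gzmb at 1.35. In the G1E control Cpa3 led at 1929 scaled reads per kilobase, followed by Gzmb at 61.8, Tpsab1 at 47.6, Srgn at 40.3 and Hdc at 12.3. The leading gene of the control, Cpa3, was not the leading gene of any other group, and the sample with the most serglycin RNA had little Cpa3 or Gzmb RNA.

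Likeness of pattern was measured by the root mean square difference of log2(level + 1) values, each centred on its mean over the 4 groups, among the 1157 genes. With 4 groups such likeness is a description of these samples. Nearest to Cpa3 were Cyp11a1, the steroid side-chain cleavage enzyme that mast cells also express (1.43), Gzmb itself (1.78) and Rgs13, a regulator of G protein signalling found in mast cells (1.85). Gzmb had smaller distances to its neighbours, Rgs13 (0.25), Nhsl2 (0.28) and the death ligand Tnfsf10 (0.29). Like it, these had 0.630 to 1.93 scaled reads with GATA-1 of any form. Such levels lie close to the floor of 1 read, and Cpa3 had the largest log2 range, 10.74. The distances of Gzmb and Cpa3 are therefore not on a like footing. Nearest to Hdc were the growth factor gene Tgfb3 (0.24), the kinase gene Rps6ka1 (0.35) and Gata2 (0.46), the GATA factor of progenitors and mast cells. Gata2 stood at 54.8 scaled reads in GATA-1 WT cells, 514 in GATA-1 2RA cells, 1316 in GATA-1 V205M cells and 773 in the control, and so shares with Hdc the lowest and the highest group. Tpsab1 came nearest to the large scaffold gene Ahnak (0.93), Plekhg3 (1.06) and the proton-sensing receptor gene Gpr65 (1.07), with Hdc in 4th place (1.15). Srgn came nearest to the collagen gene Col18a1 (0.43), Plek, the platelet protein pleckstrin (0.68), and Dock2, a Rac activator of blood cells (0.96). Plek had 368 scaled reads in GATA-1 WT cells, 1319 in GATA-1 2RA cells, 18.7 in GATA-1 V205M cells and 237 in the control.

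**Figure D3:**
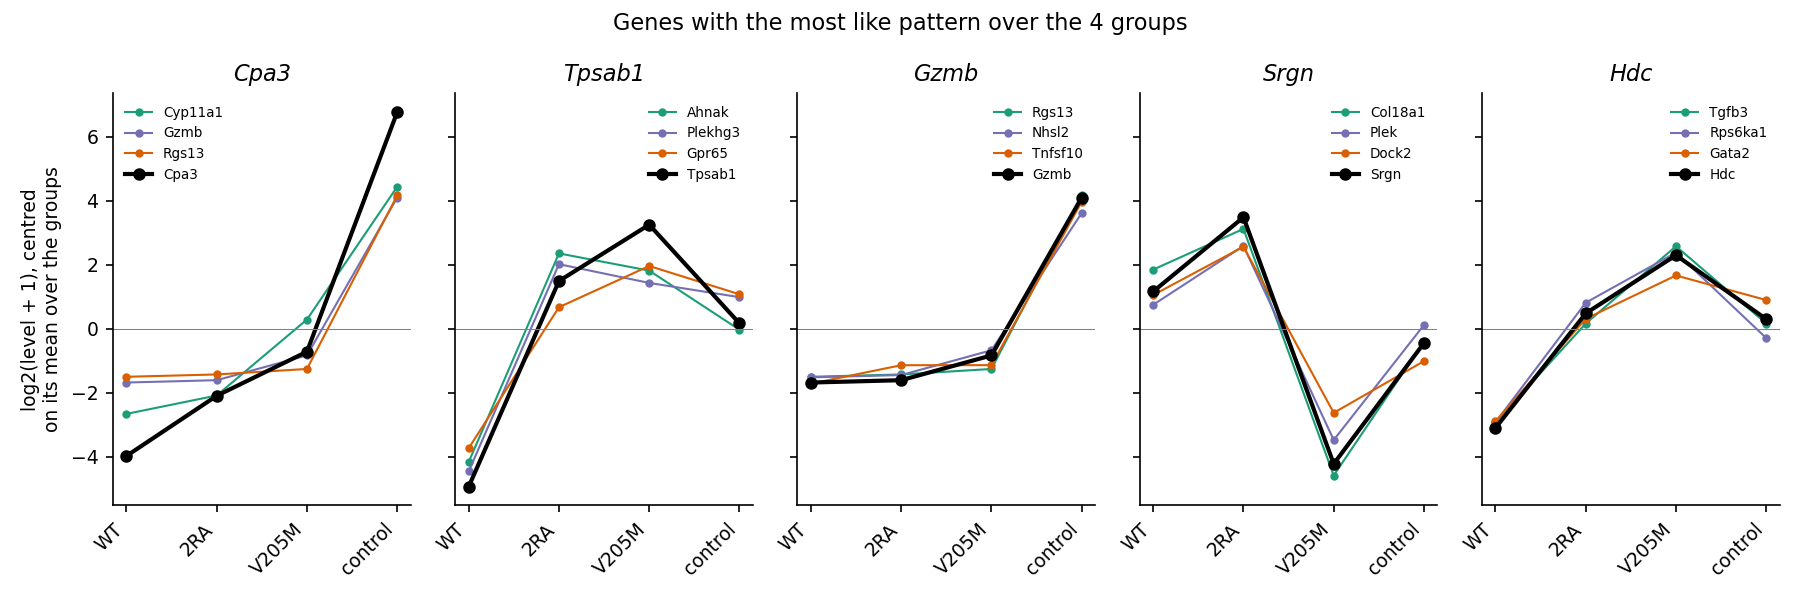
Centred log2(level + 1) of each gene (black) and of the 3 genes with the most like pattern (colours) in GATA-1 WT cells, GATA-1 2RA, GATA-1 V205M and the G1E control. The nearest genes of Gzmb and Hdc lie within 0.46 of them by root mean square difference, while those of Cpa3 are 1.43 or more away.

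Enzymes that build the glycosaminoglycan chains carried by serglycin had 7 of 38 list members in any table, which hold 23.1% of all genes tested. Ndst2, the sulfotransferase needed for fully sulfated heparin in mast cells, had 134 scaled reads in GATA-1 WT cells, 204 in GATA-1 2RA cells, 1339 in GATA-1 V205M cells and 2124 in the control. It is listed as lower than the control in GATA-1 WT cells and GATA-1 2RA and as higher than GATA-1 WT in GATA-1 V205M cells. Papss2, which makes the sulfate donor, had 11.3, 349, 45.2 and 405 scaled reads in the same order of groups, and Ugdh, which makes a sugar precursor of the chains, had 8.82, 67.2, 36.9 and 56.2. Chsy1, a chondroitin synthase, was listed as higher with all 3 forms, at 80.2 to 86.3 against 21.9 in the control. In GATA-1 2RA cells, where Srgn was highest, Slc26a2, a sulfate transporter (180 against 44.2 scaled reads in the control), Chst11, a chondroitin sulfotransferase (943 against 315), and Hs6st1, a heparan sulfotransferase (563 against 270), are also listed as higher. Of this list, 1 gene was higher and 3 lower in GATA-1 WT cells, 4 higher and 1 lower in GATA-1 2RA, and 1 higher and 2 lower in GATA-1 V205M cells, each against the control. Of all genes tested, 8.17% are listed as higher and 4.86% as lower in GATA-1 WT cells against the control. The shares were 4.86% and 2.61% for GATA-1 2RA, and 4.83% and 3.32% for GATA-1 V205M. These shares also stand beside the list counts below.

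Other granule proteases and the enzymes that activate them gave 4 of 30 list members in any table, beside 23.1% of all genes tested. No further tryptase, chymase or granzyme is among them, and neither is Ctsc, the activator of granule serine proteases. The lysosomal proteases Ctsl (169 scaled reads in GATA-1 WT cells against 9.99 in the control) and Ctsb (2238 against 397) are listed as higher in GATA-1 WT cells and Ctse (539 against 1339) as lower. Legumain (Lgmn), also lysosomal, is listed as higher than the control in GATA-1 2RA cells (33.6 against 3.54) and in GATA-1 V205M cells (161 against 3.54). Against the control, 2 of the list were higher and 1 lower in GATA-1 WT cells, 2 higher and 0 lower in GATA-1 2RA cells (Ctsb and Lgmn), and 2 higher and 0 lower in GATA-1 V205M cells (Ctsl and Lgmn).

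Of 18 genes for histamine and other amines besides Hdc, 5 are in any table, beside 23.1% of all genes tested. Hrh4, a histamine receptor, and Tph1, which starts serotonin synthesis, had 0.630 scaled reads (1 read) each in GATA-1 WT, against 22.3 and 21.4 in the control, and the arginine and histidine carrier gene Slc7a1 had 176 against 431. Ddc, the decarboxylase of the serotonin and dopamine pathways, had 465 scaled reads in GATA-1 V205M cells against 8.37 in the control, and thus was highest in the same group as Hdc. Maoa, which breaks down amines, had 0.714 scaled reads (1 read) in GATA-1 2RA cells against 25.4 in the control. The vesicular amine carrier Slc18a2 and the histamine-degrading Hnmt are in none of the tables.

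Genes of granule traffic and exocytosis gave 7 of 45 list members in any table, beside 23.1% of all genes tested. Snap23, a membrane fusion protein, had 782 scaled reads in GATA-1 WT cells against 274 in the control. It (1312 scaled reads against 274) and Lyst, which controls granule size (80.7 against 17.5), are listed as higher in GATA-1 2RA cells than in the control. Rab27b, a GTPase of granule secretion, is listed as lower in GATA-1 V205M cells, with 1.93 scaled reads against 21.7 in the control. Among protease inhibitors 2 of 14 are in any table, beside the same 23.1% of all genes tested. Of these, Spint2 had 26.4 to 29.6 scaled reads with the 3 forms against 125 in the control. The other, cystatin F (Cst7), is listed as lower in GATA-1 WT cells (1.26 scaled reads against 29.4) and in GATA-1 V205M cells (2.72 against 29.4).

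Mast cell identity and receptor genes had 11 of 18 list members in any table, beside 23.1% of all genes tested. Against the control, they were 1 higher and 9 lower in GATA-1 WT cells and 2 and 4 in GATA-1 2RA. In GATA-1 V205M cells they were 3 higher and 5 lower. The median log2 differences of the listed members were -5.20, -3.71 and -2.11, beside 1.23, 1.23 and 1.11 over all listed genes. Against GATA-1 WT, 7 were higher and 0 lower in each mutant, and in GATA-1 2RA against GATA-1 V205M 3 were higher and 3 lower. Of all genes tested, 3.33% are listed as higher and 4.04% as lower in GATA-1 2RA against GATA-1 WT. The shares were 3.7% and 5.65% for GATA-1 V205M against GATA-1 WT, and 3.6% and 2.62% for GATA-1 2RA against GATA-1 V205M. Alox5, which starts leukotriene synthesis, had 1.89 scaled reads (3 reads) in GATA-1 WT cells, 136 in GATA-1 2RA cells, 38.6 in GATA-1 V205M cells and 152 in the control. Slc45a3, a transporter gene active in mast cells and basophils, had 0.630 scaled reads (1 read) in GATA-1 WT cells, 148 in GATA-1 2RA cells, 68.5 in GATA-1 V205M cells and 122 in the control. These and Kit thus were low in GATA-1 WT cells and near or below the control in both mutants. Csf2rb, the shared receptor chain for IL-3, IL-5 and GM-CSF, was the member listed as higher with all 3 forms, at 2664 to 5095 scaled reads against 347 in the control. Ms4a2, the beta chain of the IgE receptor, had 383 scaled reads in GATA-1 V205M, against 2.14 (3 reads) in GATA-1 2RA cells and 140 in the control. Like Hdc and Tpsab1 it was highest in GATA-1 V205M cells, but unlike them it was near its lowest in GATA-1 2RA cells. Il1rl1, the IL-33 receptor, had 882 scaled reads in GATA-1 V205M cells, 42.2 in GATA-1 2RA cells and 163 in the control. Kit, the stem cell factor receptor, is listed as lower in GATA-1 WT cells (179 scaled reads against 2429 in the control) and is not listed for either mutant against the control. The defining markers Fcer1a, Cma1, Mcpt4, Tpsb2 and Mitf are in none of the tables, which hold changed genes only, so their levels are not known here.

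**Figure D4:**
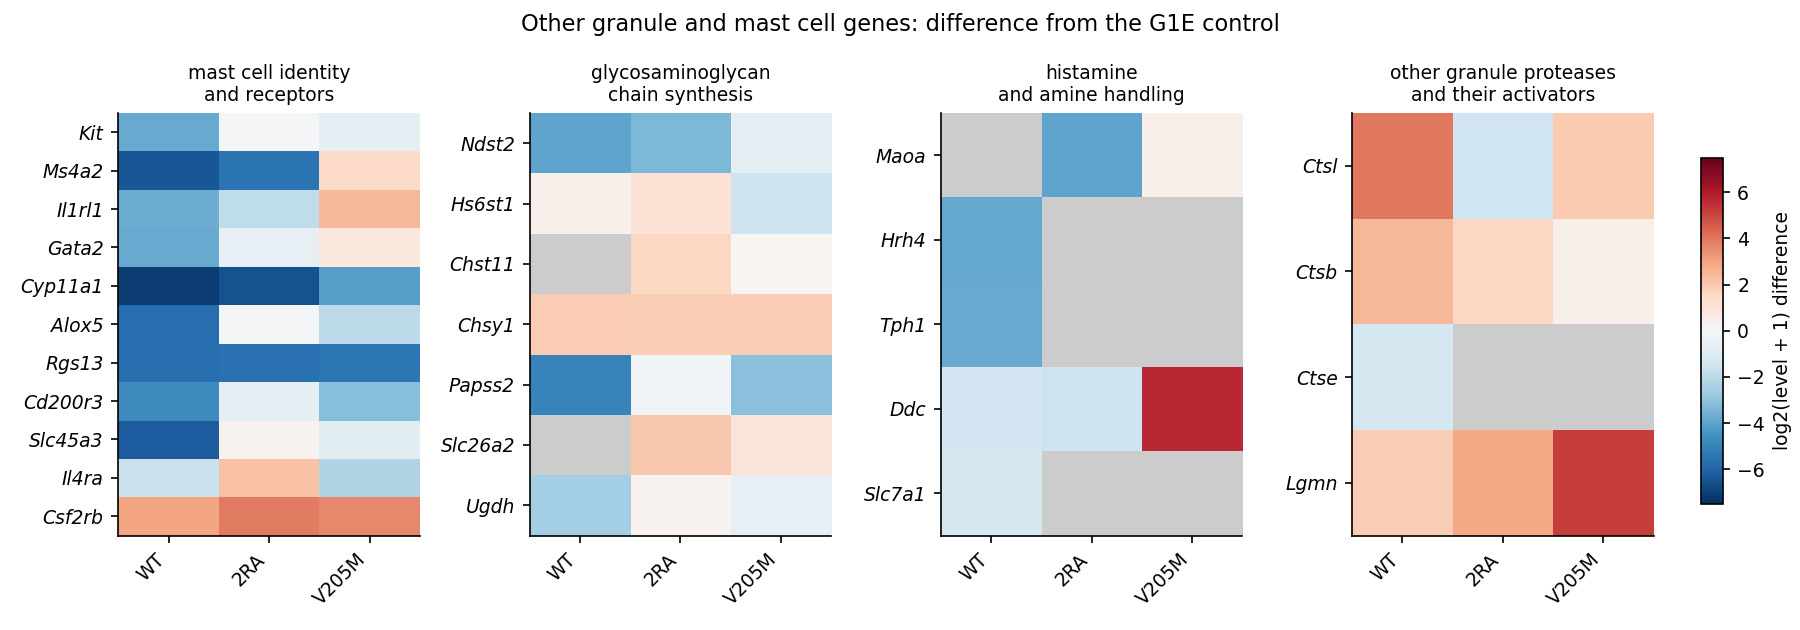
Difference in log2(level + 1) from the G1E control for cells with the WT, 2RA and V205M forms of GATA-1 (columns) for the genes of 4 lists that have a level; grey marks a missing level. Rgs13 is low with all 3 forms, Ms4a2, Il1rl1, Ddc and Lgmn are highest in GATA-1 V205M, and Ndst2 is low in GATA-1 WT cells and GATA-1 2RA.

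Of the erythroid markers, 13 of 15 are in any table, beside 23.1% of all genes tested, a share that also stands beside the other lists of this paragraph. Against the control, 10 were listed as higher and 0 as lower in GATA-1 WT cells. They were 2 higher and 5 lower in GATA-1 2RA cells and 1 higher and 6 lower in GATA-1 V205M cells. Of all genes tested, 8.17% are listed as higher and 4.86% as lower in GATA-1 WT cells against the control. The shares were 4.86% and 2.61% for GATA-1 2RA, and 4.83% and 3.32% for GATA-1 V205M. Megakaryocyte markers, given because platelets also use serglycin, were 1 higher and 1 lower in GATA-1 WT cells, 4 higher and 0 lower in GATA-1 2RA, and 0 higher and 4 lower in GATA-1 V205M cells, with 7 of 16 in any table. Itgb3, the platelet integrin chain, had 87.2 scaled reads in GATA-1 2RA cells against 7.62 in the control, and P2rx1, an ATP receptor, 209 against 52.2. Pf4, Ppbp and Itga2b, which define megakaryocytes, are in no table. Plek and P2rx1 are the 2 of this list with a level in every group. Their summed level was 371 scaled reads in GATA-1 WT cells, 1527 in GATA-1 2RA cells, 26.3 in GATA-1 V205M cells and 289 in the control. Plek makes up most of this sum in every group, so its order of groups is that of Plek alone. P2rx1 alone had another order, with 209 scaled reads in GATA-1 2RA cells, 52.2 in the control, 7.66 in GATA-1 V205M cells and 3.15 in GATA-1 WT cells. P2rx1 is listed as lower than the control in GATA-1 WT cells, at 3.15 scaled reads, where Srgn is listed as higher. Their part in the Srgn result was not tested. None of the 13 cytotoxic lymphocyte markers, perforin (Prf1) and Nkg7 among them, and none of the 15 neutrophil and macrophage markers is in any table. Of 12 basophil and eosinophil markers, Cd200r3, which is also on the mast cell list, and Il4 are. Cd200r3 had 1.26 scaled reads in GATA-1 WT cells, 35.7 in GATA-1 2RA cells, 5.58 in GATA-1 V205M cells and 59.0 in the control. Il4 had 103, 124, 47.2 and 30.0 scaled reads in the same order. Among transcription factors of mast and erythroid genes, 10 of 24 are in any table. In GATA-1 WT cells against the control 4 were higher (Gata1, Lmo2, Klf1 and Stat5b) and 3 lower (Gata2, Ikzf2 and Stat5a). The latter 3 are also listed as higher in each mutant than in GATA-1 WT cells. Ikzf2 had 48.6 scaled reads in GATA-1 2RA cells, 82.5 in GATA-1 V205M cells and 3.78 in GATA-1 WT cells. Against GATA-1 WT, Klf1 and Gfi1b are listed as lower in GATA-1 2RA cells. Gata1, Klf1, Lmo2 and Tal1 are listed as lower in GATA-1 V205M cells than in GATA-1 WT cells.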

How the data were processed

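RNA-seq of 4 groups with 1 sample each was used as deposited, in 6 tables that compare the groups in pairs. TopHat, Cufflinks, Cuffdiff, deepTools and mm10 are named in the submitters' processing notes, without versions and without saying which made these tables. The deposited signal is a read count that the authors divided by a size factor and averaged over the count columns of a group, as its values show. The authors' fold, a ratio of the 2 group levels, and its log2 value are deposited beside it. The deposited adjusted p-value is a Benjamini-Hochberg value over 12931 genes, a number recovered from 5 tables and assumed for the sixth, whose values are rounded. How the authors' p-value was computed, and whether count columns served as replicates in it, is not given in any source used here.

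Whole reads came out within 1e-07 reads for 100.0% of the values with full precision in each group. Size factors were 1.588 in GATA-1 WT cells, 1.4 in GATA-1 2RA cells, 1.163 and 0.9983 in GATA-1 V205M, and 1.167 and 0.3574 in the G1E control. Over genes with 500 or more reads, the log2 ratio of the 2 columns had an SD of 0.102 in GATA-1 V205M cells and 0.130 in the G1E control. A ratio is that of the authors' levels, and its interval is the exact binomial one on pooled reads, shifted to that ratio. Log2 differences use a pseudocount of 1 scaled read. Python 3.11.15, R 4.3.3 and edgeR 4.0.16 were used, and the recovery and edgeR steps were tested on simulated data. Annotation is GENCODE M21 on GRCm38, the assembly that mm10 names, and promoter windows, present for 4 of the 5 genes, are from RefSeq.

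Members and the 12 gene lists were chosen with earlier results of these data known. The rule for named genes was the 5 members, Gata1, up to 4 genes a list by size of change in GATA-1 WT cells or in a mutant, and the 3 nearest genes by pattern; some further list members are named after their values were seen. No test across samples was possible, and no p-value is reported for a difference. Alternatives were other pseudocounts, scalings, a level minimum, single count columns, stricter thresholds and edgeR.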

Additional observations from a re-analysis of the deposited data

How the results depend on the processing

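Direction held under all alternatives run for the 24 differences of these genes that the authors list. For equal summed levels of the 1157 shared genes, the levels of each group were divided by a factor. Its log2 was 0.40 in GATA-1 WT cells, -0.02 in GATA-1 2RA cells, -0.03 in GATA-1 V205M cells and -0.34 in the G1E control. Median ratio scaling gave log2 factors of 0.38, 0.19, -0.14 and -0.39 in the same order. A positive value lowers the levels of its group and a negative value raises them. Both rest on genes chosen for having changed. Under them 1 and 2 of the 24 differences fell under 2-fold, namely Srgn in GATA-1 WT cells (0.88 and 0.85) and, under the median ratio, Tpsab1 in GATA-1 2RA cells (0.76), each against the control.

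Differences were called moved when they left the counting interval of the log2 ratio, laid around the log2(level + 1) difference. A pseudocount of 10 moved 14 of 30, as is built into low levels, and a pseudocount of 0 or 1 read taken off every count (chosen after seeing the data) moved 0 of 30. Equal summed levels moved 3 of 30 and the median ratio 5 of 30. Each count column of the control alone moved 0 of 15. For Cpa3 in GATA-1 V205M cells against the control, the first column alone gave -8.83 and the second -6.80. Requiring a 4-fold change left 1 of the 3 genes listed for GATA-1 2RA against GATA-1 V205M, Srgn, and other counts of listed genes stayed within 1.5 times. The edgeR quasi-likelihood test took count columns as replicates and called 5, 4, 5, 3, 4 and 3 of these genes. The 1152 genes it fitted were all already listed in some comparison and GATA-1 WT and GATA-1 2RA have 1 column each, so these counts support nothing. Whether its common biological coefficient of variation of 0.0515 is spread between runs or cultures was not tested.

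No paired analysis was possible because each group has 1 sample. Depth limits Gzmb with any GATA-1 form, and Cpa3, Tpsab1 and Hdc in GATA-1 WT cells, to bounds set by 1 to 4 reads.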

Other observations

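The 2 count columns of GATA-1 V205M stood far apart for Cpa3, and the cause was not tested. Of 165 genes with 15 to 45 reads in that group, Cpa3 had the largest gap, with 6 reads in the first column and 24 in the second, a ratio of 4.66 after scaling. Sfxn3 was next, in the opposite direction, with 26 and 5 reads, and then Cyp11a1, with 6 and 18 reads and a ratio of 3.50. Cyp11a1 is also the gene whose pattern over the 4 groups is nearest to that of Cpa3, and both were far higher in the control, at 223 scaled reads for Cyp11a1 and 2795 for Cpa3. Gzmb had 1 and 3 reads. Tpsab1, Hdc and Srgn, by contrast, had column ratios of 0.985, 1.17 and 0.932. Of 30 genes with an 8-fold or higher level in the control and 10 or more reads in GATA-1 V205M cells, 18 were higher in the second column and 12 in the first, with a median log2 ratio of 0.15. The genes of like depth had a median of -0.03 and an SD of 0.65.

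Of the coding genes within 250000 bases, 0 of 6 around Cpa3, 0 of 22 around Tpsab1 and 0 of 14 around Gzmb are in any table. Around Srgn 2 of 11 are (Ddx21 and Hk1) and around Hdc 1 of 6 (Usp8). Of all genes tested 23.1% are. How many of these neighbours were tested is not known, so their counts cannot be set against that share. Hk1, 113925 bases from Srgn, had 911 scaled reads in GATA-1 2RA cells, 397 in GATA-1 V205M cells and 322 in the G1E control, and so was highest in the same group as Srgn among the 3 groups with a level.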
